A study of Mus musculus with 10 samples.

Results

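The nuclear genes of the respiratory chain are the genes of the cell nucleus that encode the protein subunits of complexes I to IV and of the ATP synthase (complex V) in mitochondria, together with cytochrome c. They were chosen by symbol. Every protein-coding gene of GENCODE M21 whose symbol begins with Nduf, Uqcr, Cox4 to Cox8 or Atp5, the genes Sdha, Sdhb, Sdhc and Sdhd, and Cyc1 and Cycs were taken. This gave 96 of 54337 genes. Of these, 38 fell to complex I, 8 to its Ndufaf assembly factors, 4 to complex II, 9 to complex III, 1 to cytochrome c, 18 to complex IV and 18 to complex V. A low-count filter left 91 of the 96 among 14473 genes tested. Of the 5 that did not pass, Cox8b, Cox8c and Cox7b2 had no read in the 8 libraries used, and Cox4i2 and Ndufa4l2 had almost none.

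TCRP1A CD8 T cells, whose transgenic receptor recognises the P1A antigen of the tumour, were activated for 24 h, transduced with a retrovirus, and transferred into Rag1-/-B10D2 mice bearing P511 mastocytoma, a mast cell tumour. The strain is labelled C57BL/6. The virus carried NFAT5 (libraries 1, 5 and 8), CA-RIT NFAT1 (libraries 2, 4, 9 and 10), a constitutively active NFAT1 mutant that does not bind its partner AP-1, or eGFP alone as the control (libraries 3, 6 and 7). All cells therefore share the receptor, the activation, the viral transduction and the tumour, and were sorted as CD8 T cells 7 days after transfer. The labels do not say how many mice were used or that each library came from a separate mouse, so p-values measure the spread between these libraries only. In sorted bulk RNA, fewer cells of a type and less RNA per cell cannot be told apart.

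Electrons from NADH enter the chain at complex I and those from succinate at complex II. Complex III passes them to cytochrome c and complex IV to oxygen, and the proton gradient built on the way drives ATP synthesis by complex V. Most subunits are nuclear, a few are encoded by mitochondrial DNA, and the 2 sets are assembled together. In CD8 T cells respiration feeds memory and effector function, and loss of mitochondrial fitness is a known feature of exhausted cells in tumours.

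Promoters of these genes are known for binding sites of NRF1, of ETS factors such as GABP, and of YY1, so the letters of these sites were looked for. A RefSeq window (GRCm38.p6) from 250 bases before to 50 after a transcription start was found for 77 of the 96 genes. NRF1 letters, GCGCANGCGC on either strand, lay in the windows of 19 of the 77 (24.7%), against 5.19% of all 27025 genes with a window. ETS letters, CCGGAAG on either strand, lay in 18 (23.4%), against 9.93% of all genes, and the YY1 core letters AAGATGG, on either strand, in 12 (15.6%), against 7.28%. No motif contains another, and 42 of the 77 genes (54.5%) held at least 1 of the 3, against 20.0% of all genes. The NFAT core letters TGGAAA were in 11 of the 77 windows (14.3%), against 24.0% of all genes. A match describes letters and not binding.

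The stretches below are shown because they place the NRF1 letters just before the start of the most highly expressed gene that holds them wholly before the start in complexes I, II, IV and V, and among the assembly factors. Each runs 5′ to 3′ on the strand of its gene, with the motif in capitals.
Ndufa11 (complex I; chr17:56717677-56717736, plus strand): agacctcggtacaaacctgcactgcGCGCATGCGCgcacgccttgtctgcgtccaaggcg
Sdhd (complex II; chr9:50603894-50603953, minus strand): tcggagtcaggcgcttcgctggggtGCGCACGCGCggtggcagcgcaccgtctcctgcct
Cox6a1 (complex IV; chr5:115349041-115349100, minus strand): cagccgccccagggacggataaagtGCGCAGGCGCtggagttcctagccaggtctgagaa
Atp5h (complex V; chr11:115420026-115420085, minus strand): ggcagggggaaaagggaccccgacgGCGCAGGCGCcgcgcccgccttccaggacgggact
Ndufaf4 (complex I assembly; chr4:24897945-24898004, plus strand): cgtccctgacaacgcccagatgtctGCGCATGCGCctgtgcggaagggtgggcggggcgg
The NRF1 letters began 60 bases before the start in Ndufa11, 79 in Sdhd, 117 in Cox6a1, 141 in Atp5h and 113 in Ndufaf4. The ETS letters are shown for the 2 most highly expressed genes that hold them before the start, both of complex IV.
Cox6a1 (chr5:115348959-115349018, minus strand): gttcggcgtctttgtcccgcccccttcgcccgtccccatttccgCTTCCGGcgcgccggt
Cox6b1 (chr7:30626115-30626174, minus strand): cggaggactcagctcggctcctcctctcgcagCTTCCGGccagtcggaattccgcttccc
They began 16 bases before the start in Cox6a1 and 28 in Cox6b1. The YY1 core letters began 10 to 38 bases past the start in 9 of the 12 genes that held them, among them Ndufs4, Ndufs6, Ndufs7, Ndufa9 and the assembly factor Ndufaf8.

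The 8 libraries used below, 3 with NFAT5, 3 with CA-RIT NFAT1 and 2 with the eGFP control, held 18.8 M to 36.6 M reads. CA-RIT NFAT1 10 was left out because its CD8 T cell markers summed to 188 CPM (counts scaled to the library's total reads), against 26450 to 40901 CPM in the 8 libraries, while its mast cell markers summed to 4047 CPM, against 40.7 to 248 CPM. The eGFP control 7 was left out because it held 51112 reads. Among the 8, eGFP control 3 stood apart: 13186 genes had a read in it, against 15276 to 17255 in the other 7, and 2902 of the tested genes were at 0, against 455 to 1149. The mean transcript length of its reads was 1520 bases, against 1760 to 2033 bases in the other 7. The antigen-presentation genes Cd74 and H2-Ab1 stood at 565 and 454 CPM in it, against 52.9 to 90.6 and 45.5 to 90.3 CPM. The B cell gene Cd79a was at 0.466 CPM in it, the highest of the 8 libraries, against 0 to 0.202 CPM. Of 10 macrophage markers 2, Lyz2 and Adgre1, were at 0 in it, but Lyz2 was also at 0 in control 6 and Adgre1 in CA-RIT NFAT1 9. The macrophage list summed to 205 CPM in control 3, against 101 to 445 CPM in the other 7. Of 10 mast cell markers 6 were at 0 in control 3, and 3 of these were at 0 in all 8 libraries. The mast cell list summed to 241 CPM in control 3, against 40.7 to 248 CPM in the other 7. Of 10 dendritic and B cell markers, Cd74 and H2-Ab1 among them, 3 were at 0 in it. The list summed to 1055 CPM in control 3, against 177 to 311 CPM in the other 7. Nearly all of the 1055 CPM came from Cd74 and H2-Ab1, so the sum does not speak for the other markers of the list.

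Transcripts of the chain were abundant in the tumour-infiltrating CD8 T cells, and genes of every structural complex had reads. Over all 96 genes, read or not, the median stood at 288 TPM (a level per transcript length, scaled to the library; mean of 8 libraries), and genes of complexes IV and V stood highest, with medians of 498 TPM over the 18 genes of complex IV and 457 TPM over the 18 of complex V. The medians were 372 TPM in complex III, 256 TPM in complex I, 199 TPM in complex II and 25.4 TPM among the complex I assembly factors, which act on the enzyme during its building and are not part of it.

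In complex I, Ndufa3 (618 TPM), Ndufa4 (583 TPM) and Ndufb7 (577 TPM) stood highest. Ndufa3 and Ndufb7 are small accessory subunits of the membrane arm, and Ndufa4, named for complex I, is now counted with complex IV. Ndufb4 was the lowest subunit with substantial reads, at 45.5 TPM, but its level is uncertain. Its processed pseudogene Ndufb4c drew 25.8 to 51.8 CPM, against 13.7 to 28.5 CPM for Ndufb4, so that reads of near-identical copies may have been split. Ndufs1, the large iron-sulfur subunit of the electron input module, stood low at 46.0 TPM. The hypoxia-induced paralogue Ndufa4l2 was seen only in CA-RIT NFAT1 2, at 0.400 TPM.

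Among the assembly factors, Ndufaf3 (68.6 TPM), Ndufaf8 (64.7 TPM) and Ndufaf7 (45.3 TPM), a methyltransferase for a core subunit, stood highest. Ndufaf5 (13.7 TPM), a hydroxylase for another core subunit, and Ndufaf4 (10.3 TPM) stood lowest. In complex II the iron-sulfur subunit Sdhb stood at 402 TPM, the membrane anchors Sdhd and Sdhc at 242 and 97.5 TPM, and the flavoprotein Sdha, which oxidises succinate, at 156 TPM. These 4 proteins are present in equal number in the enzyme.

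In complex III the small accessory subunits Uqcrq (1080 TPM) and Uqcr10 (632 TPM) stood above the core subunit Uqcrc1 (420 TPM). The Rieske iron-sulfur protein Uqcrfs1 (163 TPM) and the core subunit Uqcrc2 (147 TPM) were lowest. Cycs, the cytochrome c that carries electrons to complex IV and triggers apoptosis when released, stood at 40.0 TPM. Its transcript is long, averaging 3091 bases, so its level per length is low beside its reads.

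In complex IV the body-wide isoforms carried nearly all of the signal. Cox6a1 stood at 1193 TPM, Cox8a at 1190 TPM, Cox6b1 at 1133 TPM and Cox4i1 at 1072 TPM. Their tissue-restricted partners stood far lower: the muscle isoform Cox6a2 at 2.39 TPM, the testis isoform Cox6b2 at 1.75 TPM, and the hypoxia- and lung-associated Cox4i2 at 0.0364 TPM. Cox7a2 stood at 577 TPM and Cox7b at 444 TPM, while the muscle isoform Cox7a1 was at 3.47 TPM. Cox7a2l, known as a factor that joins complexes III and IV into supercomplexes, was at 102.5 TPM. Whether its protein does so in cells of this strain was not measured. The muscle isoform Cox8b and the testis isoforms Cox8c and Cox7b2 had 0 reads, which allows at most 0.0821 to 0.160 CPM per library (3 reads). Such limits cover counting error only.

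In complex V the catalytic subunit Atp5b was the most abundant of all 96 genes, at 2277 TPM. Atp5h, of the peripheral stalk, stood at 878 TPM and Atp5e, of the central stalk, at 767 TPM. Atp5g1, Atp5g2 and Atp5g3 encode the same mature ring protein, and Atp5g3 carried most of it, at 698 TPM, with Atp5g1 at 447 and Atp5g2 at 107 TPM. Atp5s, an accessory coupling factor, was lowest at 6.33 TPM. A gene that shares the symbol Atp5o and overlaps the main Atp5o gene on chromosome 16 stood at 8.83 TPM, and its reads cannot be told apart with certainty from those of its neighbour at 373 TPM. Atpif1, the inhibitor of the ATP synthase, lies outside the set by its symbol. It stood at 108, 156 and 166 CPM in the NFAT5 libraries, at 115, 132 and 156 CPM in CA-RIT NFAT1, and at 231 and 135 CPM in the eGFP controls 3 and 6.

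**Figure D1:**
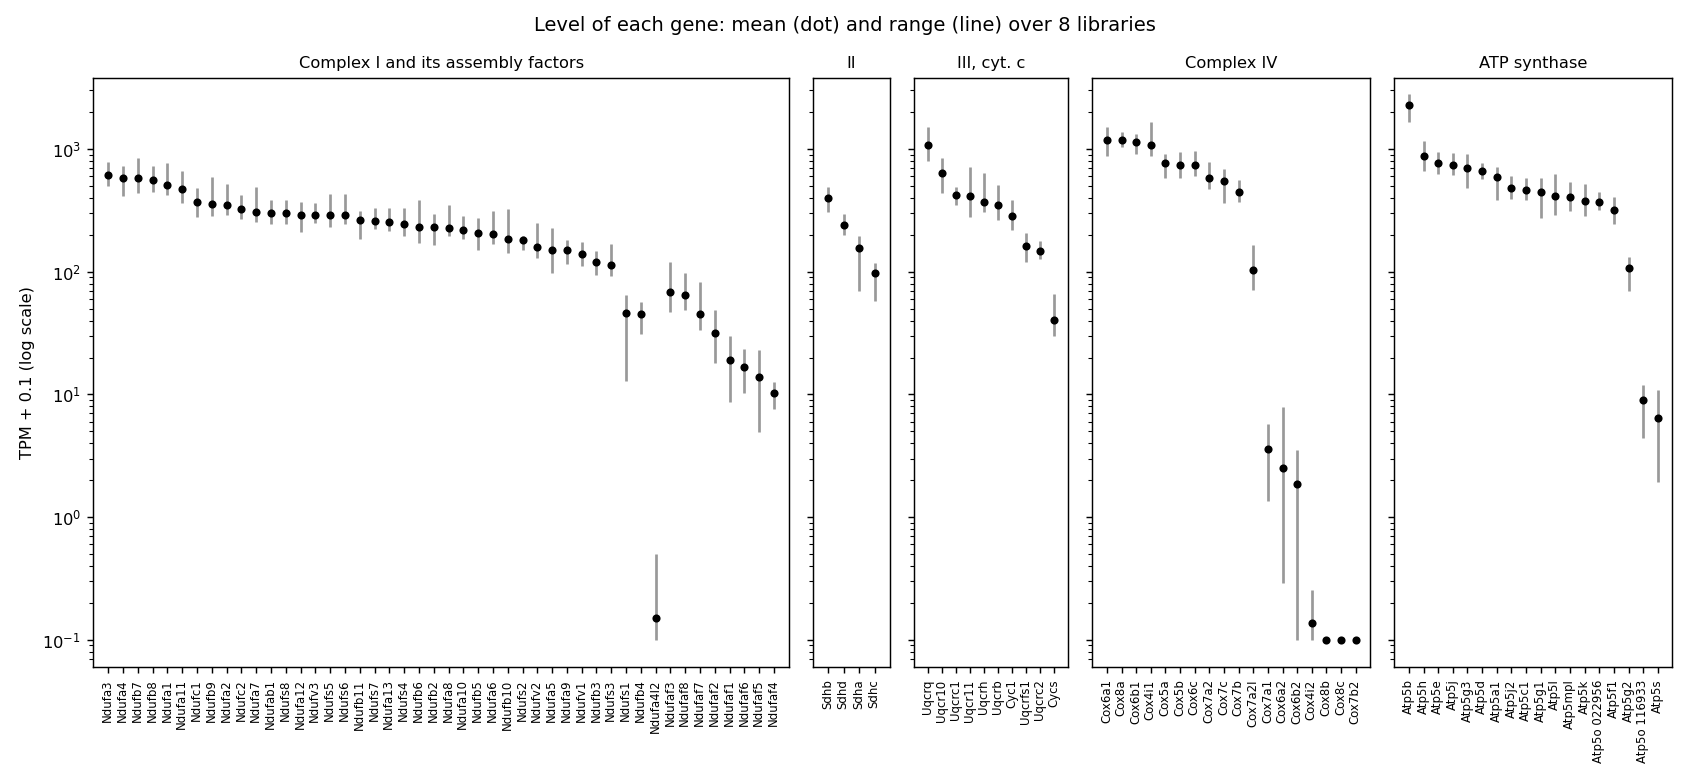
Level of each of the 96 genes, in TPM plus 0.1 on a log axis; the dot is the mean and the line the range over 8 libraries. The subunits form a band with medians of 199 to 498 TPM by complex, the assembly factors lie below at 25.4 TPM, and the tissue-restricted isoforms of complex IV lie at the foot of the plot.

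The share of all reads that came from the 96 genes varied as much inside a vector group as between groups. It was 1.50%, 1.97% and 2.23% in NFAT5 1, 5 and 8, then 1.42%, 1.70% and 2.06% in CA-RIT NFAT1 2, 4 and 9, and 2.53% and 1.64% in the eGFP controls 3 and 6. The eGFP control 3 was the highest of the 8, the eGFP control 6 lay within both other groups, and all 3 groups overlapped. CA-RIT NFAT1 10 stood at 2.21%.

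Complex I subunits summed to 3934, 5207 and 5895 CPM with NFAT5, to 3851, 4380 and 5196 CPM with CA-RIT NFAT1, and to 7663 and 4355 CPM in the eGFP controls 3 and 6. The eGFP control 3 was thus 1.75 times the median of the other 7, outside their range of 3851 to 5895 CPM. The same library was 1.92 times that median for the assembly factors, 1.58 times for complex III, 2.10 times for cytochrome c and 1.70 times for complex IV, each above all other 7 libraries. For complex II it was 1.12 times and for complex V 1.24 times, and there NFAT5 8 stood higher, with CA-RIT NFAT1 9 also higher in complex II. In deposited TPM the excess was smaller, 1.44 times for complex I, 1.32 times for complex IV and 1.30 times for all 96 genes.

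**Figure D2:**
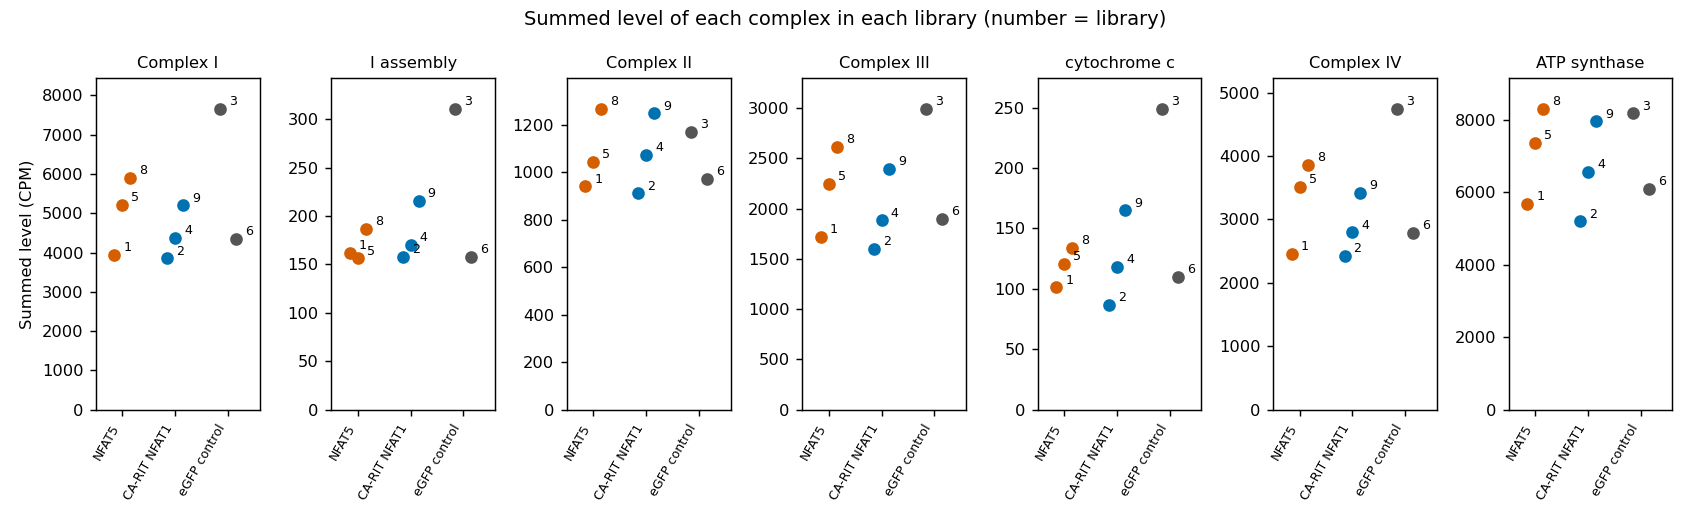
Summed level of each complex in CPM (vertical axis, starting at 0) in the 8 libraries, 1 dot for each library, labelled with its number, by vector group. The eGFP control 3 lies above all others in complexes I, III and IV, the assembly factors and cytochrome c, and the eGFP control 6 lies among the NFAT5 and CA-RIT NFAT1 libraries.

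Of the TPM of all 96 genes, complex IV took 24.7% to 25.5% in the 8 libraries, complex I 29.5% to 33.3%, complex III 10.8% to 12.5%, complex V 25.8% to 30.6% and complex II 2.15% to 2.96%. The assembly factors took 0.602% to 0.954% and the cytochrome c genes 0.0960% to 0.158%. The eGFP control 3 had the highest share of complexes I and III and the lowest of complexes II and V. Leaving that library aside, the highest of the other 7 libraries exceeded the lowest by 1.67 times for the median gene.

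Gene by gene, eGFP control 3 exceeded all other 7 libraries in 69 of the 91 tested genes, where 22.3% of all tested genes did. It lay below all other 7 in 8 of them, where 37.1% of all genes did. The 8 were Ndufs1, Ndufaf1, Ndufaf5, Sdha, Sdhc, Atp5a1, the testis isoform Cox6b2 and the second Atp5o gene. Uqcrh, the hinge protein of complex III (chr4:116066965-116075071), had 109, 147 and 134 CPM with NFAT5, 120, 116 and 129 CPM with CA-RIT NFAT1, and 302 and 140 CPM in the eGFP controls 3 and 6. Ndufb10, an accessory subunit of the complex I membrane arm, had 81.7, 102 and 112 CPM with NFAT5, 78.3, 88.6 and 94.4 CPM with CA-RIT NFAT1, and 225 and 88.9 CPM in the controls 3 and 6. Cycs (chr6:50562563-50566538) had 101, 121 and 134 CPM with NFAT5, 87.0, 119 and 165 CPM with CA-RIT NFAT1, and 249 and 110 CPM in the controls 3 and 6. In all 3 genes the excess of the controls lay in library 3 alone, and the control 6 fell inside or next to the range of the other groups.

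Complex II split into pairs within that library. Sdha (chr13:74322254-74350280) had 337, 281 and 320 CPM with NFAT5, 323, 343 and 389 CPM with CA-RIT NFAT1, and 186 and 316 CPM in the eGFP controls 3 and 6. Sdhc (chr1:171127165-171150603) had 83.1, 99.4 and 112 CPM with NFAT5, 83.5, 101 and 96.8 CPM with CA-RIT NFAT1, and 62.8 and 95.9 CPM in the controls 3 and 6. Both were lowest in control 3, where Sdhb and Sdhd were highest, at 571 and 351 CPM. Sdhb ranged from 289 to 490 CPM and Sdhd from 198 to 347 CPM in the other 7 libraries. Ndufs1 (chr1:63143596-63176833) likewise had 112, 102 and 140 CPM with NFAT5, 90.9, 110 and 98.2 CPM with CA-RIT NFAT1, and 41.0 and 94.1 CPM in the controls 3 and 6, so that only the control 3 lay apart.

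**Figure D3:**
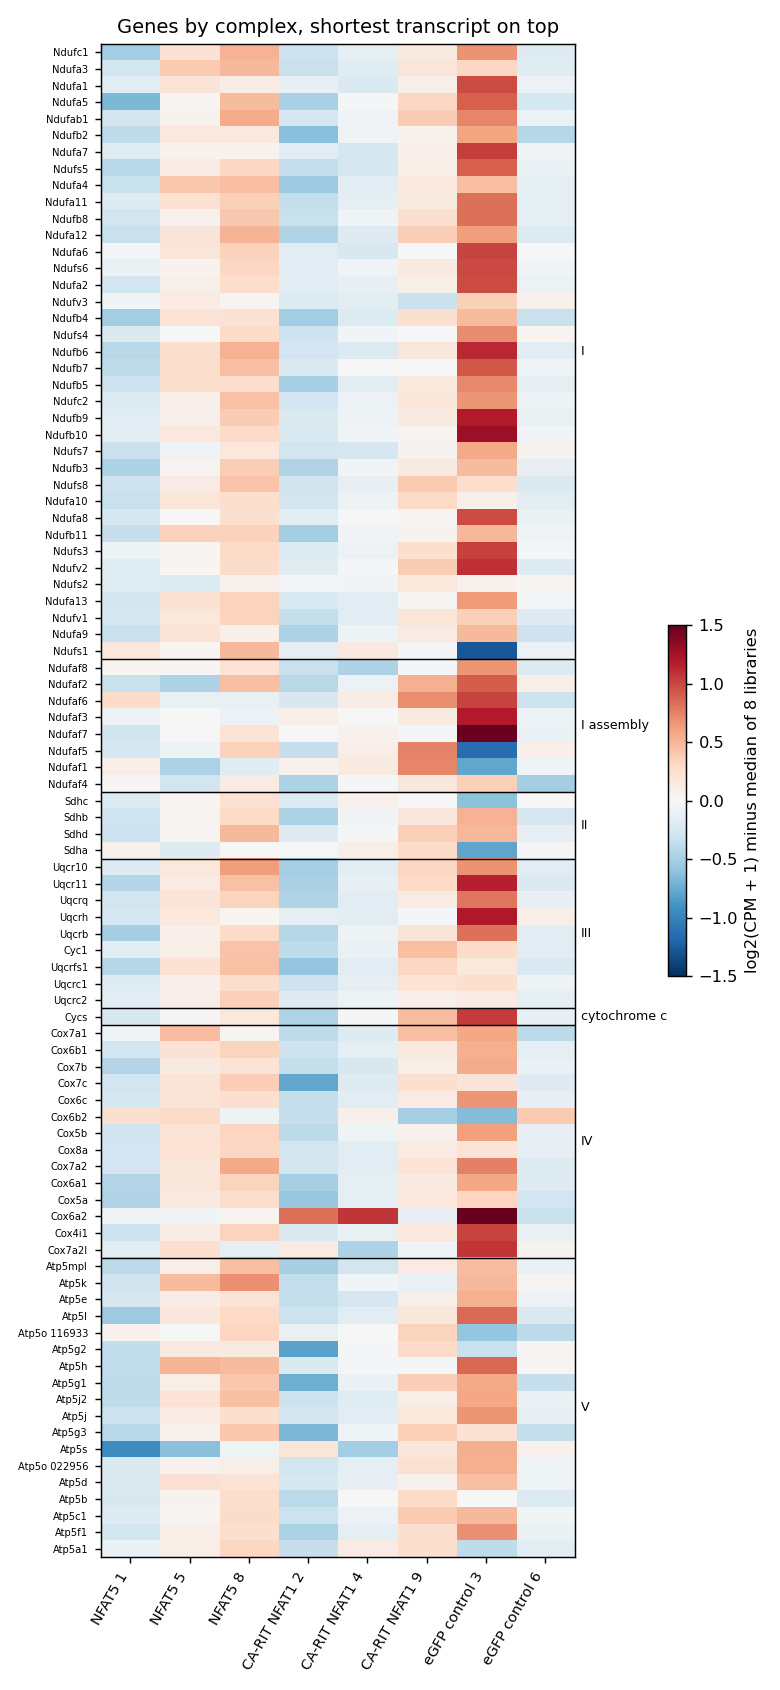
Level of the 91 tested genes (rows, by complex and, within a complex, from the shortest to the longest transcript) in the 8 libraries (columns, NFAT5 left, then CA-RIT NFAT1, then eGFP control), as log2(CPM + 1) minus the gene's median. Red is above and blue below the median; the column of eGFP control 3 is red for 82 genes relative to the other 7, with Ndufs1, Sdha, Ndufaf5 and Ndufaf1 in blue, and NFAT5 1 and CA-RIT NFAT1 2 are mostly blue.

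Transcript length moved with these values. The tested genes had a median transcript length of 624.9 bases, against 2057 bases for 11888 other protein-coding genes. On the log2(CPM + 1) scale, eGFP control 3 minus the median of the other 7 libraries was a median of 0.79 over the 41 genes of the chain under 600 bases, against 0.41 over other protein-coding genes of that length. It was 0.71 over the 27 genes of 600 to 1000 bases, against 0.48 over the others, 0.52 over the 16 of 1000 to 1500 bases, against 0.10, and -0.14 over the 6 of 1500 to 3000 bases, against -0.46. Cycs was the only tested gene of the chain over 3000 bases and stood at 1.07, against a median of -1.09 for others of that length. At each length the genes of the chain thus had a higher median than the others, and the bins of 6 genes and 1 gene are thin. Across genes, Spearman's rho between length and this difference was -0.30 for the chain and -0.43 for the others. It is given as a description, since genes share the library. Over the 91 genes of the chain, rho for NFAT5 libraries 1, 5 and 8 was 0.33, -0.43 and -0.29. For CA-RIT NFAT1 libraries 2, 4 and 9 it was 0.27, 0.44 and 0.04, and for eGFP control 6 it was 0.19. Among genes of the chain a relation of this size was thus not confined to control 3, and its sign differed between libraries. The part of transcript length in the results was not tested further than by the fit without a length trend given below.

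In Ndufv3, chosen after its values were seen, the same library used the shorter transcript more than the others did. Ndufv3, an accessory subunit of the electron input module, has a long transcript of 1582 bases and a much shorter one. The long one took 28.5%, 24.3% and 21.6% of its reads with NFAT5, 24.0%, 22.8% and 15.2% with CA-RIT NFAT1, and 4.81% and 19.2% in the eGFP controls 3 and 6. The short one took 82.4% in control 3 and 61.7% to 74.1% in the other 7. In Ndufaf1 a transcript of 1308 bases took 100% in control 3, against 20.7% to 70.7% in the other 7. Its transcripts of 1451 and 1478 bases took 0% in control 3, as did its shorter ones of 622 and 291 bases. The one of 1478 bases was also at 0% in NFAT5 5, and the one of 622 bases in CA-RIT NFAT1 4. Atp5g2 showed no such turn: its transcript of 441 bases took 26.9% in control 3, against 23.9% to 51.5% in the other 7. These shares are Salmon's own division of reads among transcripts.

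**Figure D4:**
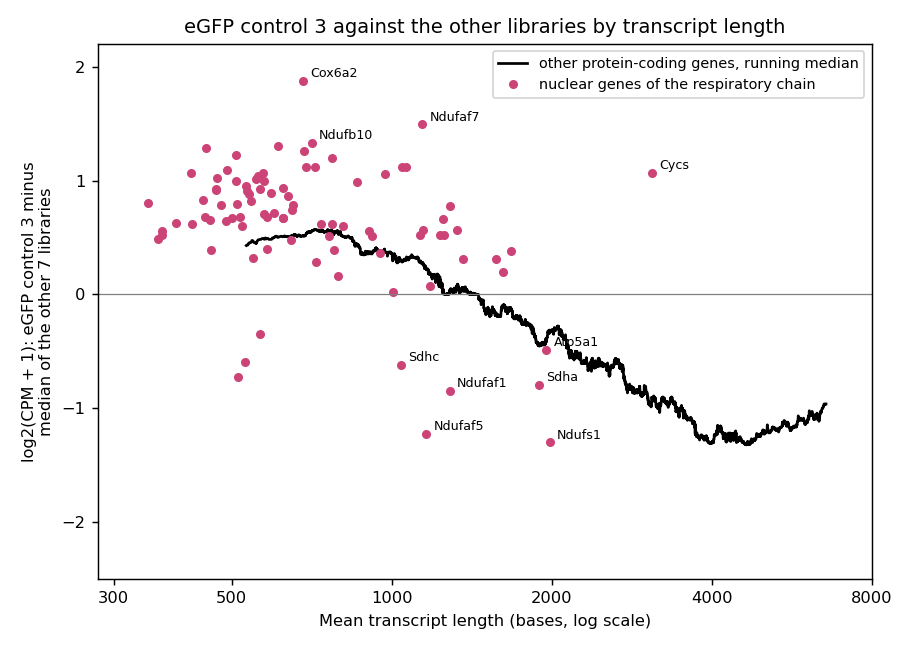
Mean transcript length in bases (log axis) against the difference in log2(CPM + 1) between eGFP control 3 and the median of the other 7 libraries, for the 91 tested genes (points) and as a running median over other protein-coding genes (line). The points lie mostly above the line, at a median of 0.79 under 600 bases, and the named points below 0 include Ndufs1, Sdha, Ndufaf5, Ndufaf1 and Sdhc.

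NFAT5 was compared with the eGFP control to ask whether the factor alters gene expression in the tumour. Most genes of the chain lay lower with NFAT5, but none passed the test. The median log2 fold change was -0.31 over the 91 genes, against 0.08 over all genes tested, and 79 of the 91 were below 0, against 45.8% of all genes. By complex the median was -0.38 in complex I, -0.50 among its assembly factors, -0.01 in complex II, -0.20 in complex III, -0.29 in complex IV and -0.25 in complex V. edgeR's quasi-likelihood test with Benjamini-Hochberg adjustment called 0 of the 91 genes, and 0 of 14473 genes (0%). At an unadjusted p below 0.05 it gave 3 of the 91 lower and 0 higher, where 4.01% and 3.25% of all genes did so. DESeq2 and limma voom also called 0 of the 91, beside 0.705% of all genes called by DESeq2 and 0% by voom.

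The 4 smallest p-values on the lower side belonged to Uqcrh, Ndufaf7, Ndufaf3 and the supercomplex factor Cox7a2l. The mean of Uqcrh was 130 ± 19.2 CPM in NFAT5 libraries (SD, n = 3) and 221 ± 114.5 CPM in the eGFP control (SD, n = 2). Its log2 fold change was -0.89 ± 0.34 (SE), with an adjusted p = 0.654 in edgeR. Ndufaf7 had 32.2, 39.4 and 45.9 CPM with NFAT5, against 113 and 37.0 CPM in controls 3 and 6, and a log2 fold change of -1.07 ± 0.45. Ndufaf3, an early assembly factor, had 32.3, 34.3 and 32.1 CPM with NFAT5, against 79.7 and 32.2 CPM in the controls, and -0.90 ± 0.39. Cox7a2l had -0.78 ± 0.35. In each of these 4 genes the NFAT5 libraries overlapped the control range, whose low end was library 6.

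On the higher side stood Ndufs1 (0.72 ± 0.34), the second Atp5o gene (0.72 ± 0.64), the catalytic-core subunit Atp5a1 (0.28 ± 0.25) and Sdha (0.22 ± 0.24). Atp5a1 had 1048, 1208 and 1397 CPM with NFAT5, against 861 and 1008 CPM in the controls. All NFAT5 libraries lay above both controls in the first 3 of these, and below both in Atp5s alone, where 14.2% of all genes tested lay wholly above and 8.15% wholly below. Atp5s had 1.81, 2.51 and 4.15 CPM with NFAT5, against 6.90 and 4.65 CPM in the controls. Each of these counts lies below the share of all genes.

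Without eGFP control 3 the direction turned: the median became 0.20, and 78 of the 91 genes were above 0. Without eGFP control 6, which leaves library 3 as the only control, the median was -0.70 and 17 of the 91 genes were called, 16 of them lower, where 20.6% of all genes were called. With all 10 libraries the median was -0.14, beside 0.16 over all genes. Scaling by total reads moved the median of all genes to 0.18 and that of the chain to -0.19.

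CA-RIT NFAT1 was compared with the same eGFP control libraries, so both comparisons share the controls. The genes of the chain again lay lower and none passed. The median was -0.54 over the 91 genes, against 0.10 over all genes, and 84 of the 91 were below 0, against 45.3% of all genes. It was -0.60 in complex I, -0.55 among its assembly factors, -0.08 in complex II, -0.53 in complex III, -0.56 in complex IV and -0.49 in complex V. edgeR called 0 of the 91 and 0 of 14473 genes (0%). Its unadjusted p was below 0.05 for 8 of the 91 lower and 0 higher, where 3.16% and 3.28% of all genes did so. DESeq2 and voom called 0 of the 91, beside 0.415% and 0% of all genes.

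Uqcrh averaged 122 ± 6.47 CPM with CA-RIT NFAT1 (SD, n = 3) and 221 ± 114.5 CPM in the eGFP control (SD, n = 2). Its log2 fold change was -1.01 ± 0.34, with an adjusted p = 0.679 in edgeR, and its 3 CA-RIT NFAT1 libraries lay below both controls. Ndufv3 had 101, 104 and 91.4 CPM with CA-RIT NFAT1, against 149 and 121 CPM in the controls, and a log2 fold change of -0.58 ± 0.21. It did not overlap either. Ndufa6, an accessory subunit of the peripheral arm, had -0.87 ± 0.33, and Cox7a2l -0.92 ± 0.35, and both overlapped the controls.

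On the higher side stood the assembly factor Ndufaf1 (0.65 ± 0.40), Sdha (0.38 ± 0.24), Ndufs1 (0.46 ± 0.33) and Ndufaf5 (0.60 ± 0.55). Ndufaf1 had 25.1, 26.4 and 40.6 CPM with CA-RIT NFAT1, against 13.5 and 22.9 CPM in the controls. Libraries did not overlap for 5 genes on the lower side, which were Uqcrh, Ndufv3, Ndufs4, Atp5h and Atp5k, and for 3 on the higher side, Ndufaf1, Sdha and the second Atp5o gene. Of all genes tested, 6.7% lay wholly below and 14.2% wholly above.

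Without eGFP control 3 the median was 0.016, with 49 of the 91 genes above 0. Without eGFP control 6 it was -0.90 and 30 of the 91 genes were called, 29 of them lower, where 21.3% of all genes were called. With all 10 libraries it was -0.35, beside 0.19 over all genes, and with scaling by total reads -0.40, beside 0.21. Removing each library's trend with transcript length gave -0.35 for CA-RIT NFAT1 and -0.29 for NFAT5, beside -0.10 and -0.09 over all genes.

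**Figure D5:**
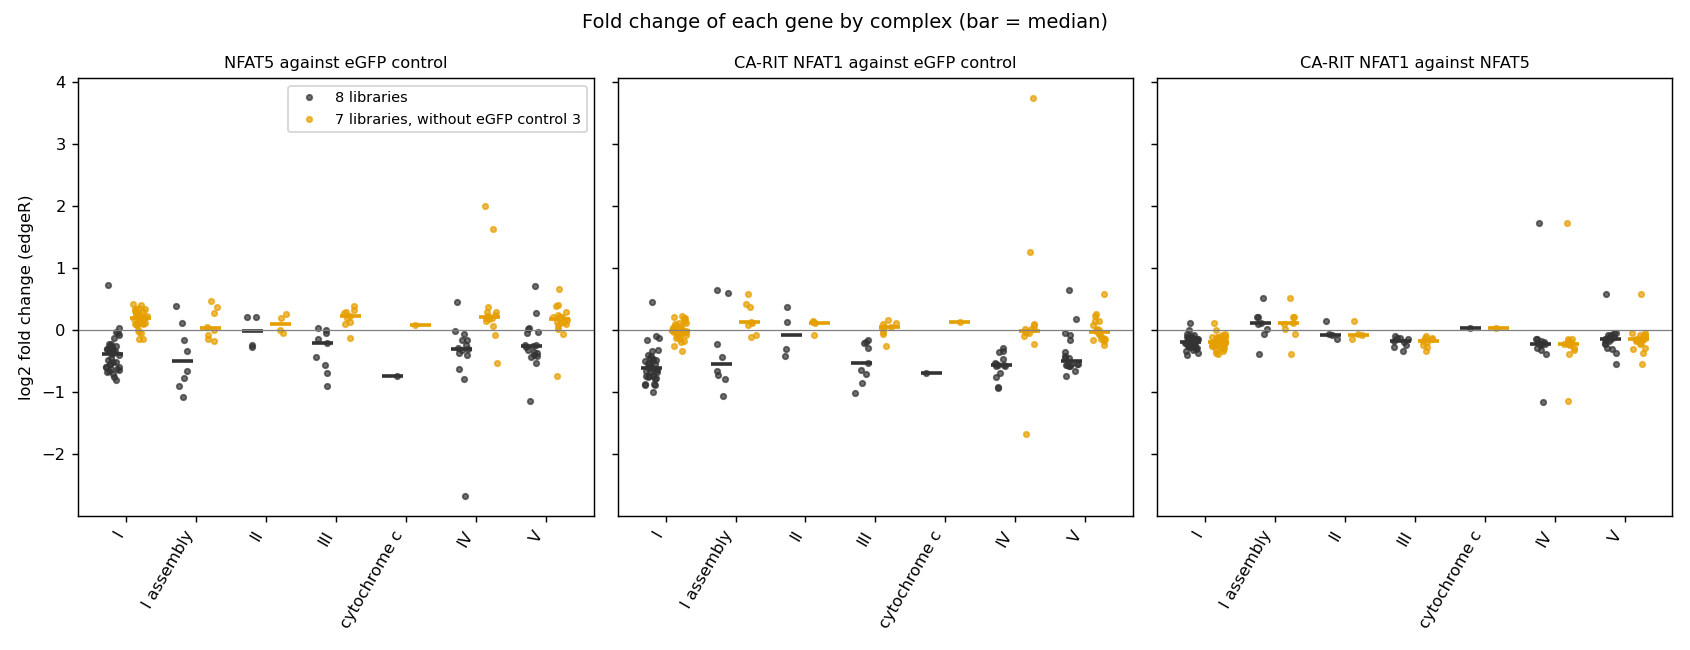
log2 fold change in edgeR of each tested gene by complex in the 3 comparisons, from 8 libraries (dark) and from 7 without eGFP control 3 (orange); bars are medians. Against the eGFP control the dark points lie mostly below 0 (medians -0.31 and -0.54) and the orange ones around or above it (0.20 and 0.016); between CA-RIT NFAT1 and NFAT5 both sets lie at a median of -0.15.

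CA-RIT NFAT1 against NFAT5 uses no control library. The difference was small: the median was -0.15 over the 91 genes, against 0.00 over all genes, and 79 of the 91 were below 0, against 49.5% of all genes. The medians were -0.18 in complex I, 0.11 among its assembly factors, -0.07 in complex II, -0.16 in complex III, -0.22 in complex IV and -0.14 in complex V. edgeR called 0 of the 91 and 0 of 14473 genes (0%), and none of the 91 had an unadjusted p below 0.05, where 0.339% of all genes did on the lower and 0.788% on the higher side. DESeq2 and voom called 0 of the 91, beside 0.00691% and 0% of all genes. The median was -0.02 without NFAT5 8, -0.03 without CA-RIT NFAT1 2, -0.31 without NFAT5 1 and -0.29 without CA-RIT NFAT1 9, and it was -0.03 once the length trend was removed.

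Atp5k, a small subunit where 2 ATP synthases meet, had 50.9, 63.7 and 60.6 CPM with CA-RIT NFAT1, against 53.1, 91.4 and 106 CPM with NFAT5. Its log2 fold change was -0.53 ± 0.31, with an adjusted p = 1.00 in edgeR. Ndufv3 had 101, 104 and 91.4 CPM with CA-RIT NFAT1, against 112, 127 and 119 CPM with NFAT5, and -0.29 ± 0.19. Ndufv3 and Ndufaf8 were the 2 genes whose libraries did not overlap, both lower, where 2.77% of all genes lay wholly below and 4.06% wholly above.

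Ndufa3 had -0.36 ± 0.29 and Ndufa4 -0.39 ± 0.32. On the higher side stood Ndufaf1 (0.52 ± 0.35), Atp5s (0.59 ± 0.61), Sdha (0.16 ± 0.21) and the muscle isoform Cox6a2 (1.74 ± 1.36). Cox6a2 had 1.41, 1.87 and 0.248 CPM with CA-RIT NFAT1, against 0.323, 0.320 and 0.393 CPM with NFAT5. Its level came from 2 CA-RIT NFAT1 libraries, 2 and 4.

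The other genes of the pathway gave no adjusted call in any comparison. They were counted in 7 lists, whose medians are given for NFAT5 and then for CA-RIT NFAT1, each set against the control, and last between the vectors, CA-RIT NFAT1 over NFAT5. The 9 measured complex I assembly factors without a Nduf symbol stood at -0.25, -0.28 and -0.03, and the 10 for complexes II and III at -0.27, -0.33 and -0.09. The 25 of complex IV stood at -0.22, -0.29 and -0.07, and the 4 of complex V at -0.32, -0.48 and 0.11. The 15 tested regulators of mitochondrial biogenesis stood at 0.14, -0.07 and -0.10, the 17 genes of the tricarboxylic acid cycle and pyruvate dehydrogenase at 0.10, 0.13 and 0.01, and the 13 mitochondrially encoded subunits at -0.07, 0.00 and -0.07. With the 8 libraries the cycle and the mitochondrially encoded subunits thus lay near the median of all genes, where the nuclear subunits lay below it. Without eGFP control 3 this contrast was gone. The medians with NFAT5 were then 0.08 for the cycle, 0.22 for the mitochondrially encoded and 0.20 for the nuclear genes. With CA-RIT NFAT1 they were 0.07, 0.11 and 0.016. The lists of assembly factors then ran from -0.06 to 0.14 with NFAT5 and from -0.15 to 0.10 with CA-RIT NFAT1.

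Cox17, the copper chaperone of complex IV, had 141, 175 and 203 CPM with NFAT5, 155, 133 and 150 CPM with CA-RIT NFAT1, and 345 and 190 CPM in the eGFP controls 3 and 6. Higd1a, a hypoxia-induced factor that binds complex IV, had 97.5, 101 and 128 CPM with NFAT5, 104, 102 and 126 CPM with CA-RIT NFAT1, and 349 and 120 CPM in the controls. Gabpa, the DNA-binding subunit of GABP, went the other way, with 61.3, 71.8 and 79.0 CPM with NFAT5, 53.5, 59.0 and 67.0 CPM with CA-RIT NFAT1, and 16.1 and 39.0 CPM in the controls. NFAT5 and CA-RIT NFAT1 libraries of Gabpa lay above both controls, but the control 3 again lay farthest out. Its log2 fold change was 1.28 ± 0.37 with NFAT5 and 1.02 ± 0.36 with CA-RIT NFAT1, with an unadjusted p = 0.00769 and 0.0216 in edgeR and no adjusted call.

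Among the other lists, those for complexes II and III were led by Uqcc2, an assembly factor of complex III, at -0.83 ± 0.34 with NFAT5 and -0.93 ± 0.34 with CA-RIT NFAT1, both against eGFP. Tmem242, an assembly factor of complex V, stood at -0.82 ± 0.33 and -0.59 ± 0.33. Twnk, the mitochondrial DNA helicase, stood at -1.58 ± 0.70 and -1.47 ± 0.70, and Suclg2 of the cycle at 0.93 ± 0.49 and 0.85 ± 0.49. In mitochondrial DNA, mt-Nd5, a membrane subunit of complex I, stood at 0.70 ± 0.33 and 0.61 ± 0.32. Uqcc2, Twnk, Suclg2 and mt-Nd5 had 118, 24.8, 14.6 and 101 CPM in eGFP control 3, outside all other 7 libraries. In control 6 they had 58.3, 10.2, 59.4 and 169 CPM, inside the range of the NFAT5 and CA-RIT NFAT1 libraries. Tmem242 had 31.4 and 25.1 CPM in controls 3 and 6, both above the 14.4 to 22.2 CPM of those libraries. Among the complex I assembly factors the smallest p-values belonged to Tmem186 (-0.88 ± 0.52) and Tmem126b (-0.62 ± 0.43) with NFAT5, and to Dmac1 (-0.65 ± 0.37) and Tmem70 (0.64 ± 0.39) with CA-RIT NFAT1, so that this list held values on both sides of 0. At an unadjusted p below 0.05 in edgeR the lists together held 5 genes in each comparison with the control, 4 of them lower, and none between CA-RIT NFAT1 and NFAT5. The lists had 9, 10, 25, 4, 15, 17 and 13 tested genes. Of all genes tested, 4.01% were lower and 3.25% higher with NFAT5, and 3.16% and 3.28% with CA-RIT NFAT1. Between the vectors 0.339% were lower and 0.788% higher. With NFAT5, 2 of 25 for complex IV, 1 of 10 for complexes II and III and 1 of 4 for complex V were lower. With CA-RIT NFAT1, 3 of 25 for complex IV and 1 of 10 for complexes II and III were lower. In each comparison 1 of the 15 regulators was higher. The lists that held such genes thus lay above the general share, but on counts of 1 to 3 genes, and the other lists held none.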

How the data were processed

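RNA of CD8 T cells sorted from tumours was sequenced in 10 libraries, and each file lists, per transcript, lengths, TPM and estimated reads, per the file headers. Deposited estimated counts come from Salmon 0.14.1, per the submitters' processing notes, which name GRCm38.p6 and mm10. The deposited TPM values are Salmon's and were summed over the transcripts of a gene. The effective lengths deposited by the authors (other than expression) served only in the length offsets. Trimming and options: not given in the sources used here.

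GENCODE M21 held 139966 of the 140919 transcripts, and the other 953, at most 0.292% of a library's reads, were left out. The release was inferred from identical lengths in 99.9% of matches. Estimated counts were summed by gene and rounded for the tests, and CPM use the reads on matched genes. Genes were tested with edgeR 4.0.16 (quasi-likelihood, TMM scaling, default low-count filter, 1 fit over the 3 groups, Benjamini-Hochberg over 14473 genes, threshold 0.05) in R 4.3.3. edgeR's common biological coefficient of variation was 0.725 (8 libraries) or 0.934 (10 libraries). Simulated data with known changes were used to test the code of the fit. Their spread was smaller than that of these libraries, so they do not show its power here. Alternatives were all 10 libraries, RLE, upper-quartile and total-count scaling, DESeq2 1.42.0, limma 3.58.1 voom, other filters, only the compared groups, length offsets, a length trend removed by lowess (span 0.3), and each library left out. A level of 1 CPM was added before log2. Promoter windows were matched by symbol or synonym in RefSeq tables. Coordinates of genes are those of GENCODE M21 on GRCm38.

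Libraries were grouped by the vector named in the labels. The members, lists, tests and the 8 libraries were chosen with earlier results of these data known. In the members' own complex, the 3 highest and 2 lowest by TPM were named, with all tissue isoforms, and in each comparison the 4 of smallest p in each direction. For the pathway lists the 2 of smallest p were ranked, and most of these are named for the comparisons with the control. The Uqcrh, Ndufb10, Cycs, Sdha, Sdhc, Ndufs1 and Ndufv3 values across libraries were chosen after their values were seen. So were the transcript shares of Ndufv3, Ndufaf1 and Atp5g2. In the lists, Coa1 was not found under that symbol.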

Additional observations from a re-analysis of the deposited data

Results flagged for a closer look

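Values of 2 genes outside the 8 libraries exceeded all of them, and they were not used in a comparison. Cox6a2, the muscle isoform of a complex IV subunit, stood at 24.9 CPM in CA-RIT NFAT1 10, against 0.0809 to 3.86 CPM in the 8 libraries. In that library the mast cell markers summed to 4047 CPM and the CD8 T cell markers to 188 CPM, and their part in the value was not tested. Atp5j2, a subunit of the membrane part of the ATP synthase, stood at 18316 CPM in eGFP control 7, against 176 to 344 CPM in the 8 libraries. These were 936 of its reads, in a library of 51112 reads where 10 of the 91 tested genes of the chain had any read, and the mitochondrially encoded mt-Atp6 stood at 4951 CPM in the same library, against 47.9 to 183 CPM. The part of the low depth in the value was not tested.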

How the results depend on the processing

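No paired analysis was possible because no library number is shared between the vector groups. Leaving out each library in turn, the median log2 fold change of the 91 genes ran from -0.70 to 0.20 for NFAT5 against eGFP (0.20 without eGFP control 3), from -0.90 to 0.016 for CA-RIT NFAT1 (0.016 without that library) and from -0.31 to -0.02 for CA-RIT NFAT1 against NFAT5. The number of genes called ran from 0 to 17, from 0 to 30 and from 0 to 0 in the same order, and the calls appeared without eGFP control 6. In every other setting run no gene of the chain was called. Scaling by RLE, upper quartile or total counts kept the medians below 0 in all 3 comparisons, as did the other tools, filters, length settings and all 10 libraries.

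The sum in eGFP control 3 over the median of the other 7 libraries was 1.44 for complex I, 1.60 for its assembly factors, 1.78 for cytochrome c, 1.32 for complex IV and 1.30 for all 96 genes in deposited TPM, and 2.15 for the assembly factors in TMM-scaled CPM. The cause was not tested. Of the named genes, those reversed without eGFP control 3 in NFAT5 against eGFP were Ndufaf7 (0.059, range -1.69 to 0.059 with each library left out), Ndufaf3 (0.0069, range -1.44 to 0.0069) and Sdha (-0.043, range -0.043 to 0.58). The summed CPM of the 2 control libraries differed by more than the means of the vector groups did, which limits the comparisons with the control, and a missed threshold does not show that levels were equal.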
